A study of Rattus norvegicus with 28 samples.

Results

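The metallothionein and zinc transporter genes described here are Mt1a, Mt2A, Mt3, Mtf1, Slc30a1, Slc30a2, Slc39a1, Slc39a8, Slc39a10 and Slc39a14. They are 10 of the 19505 gene symbols in the table, and they have 12 of its 26208 probe sets. A probe set was taken where 1 of its annotated symbols was a member, which gave 2 probe sets each for Mt1a and Mt2A and 1 for each of the other 8 genes. The genes were chosen by their measured log2 changes against the controls, which were known, so those changes are given as a description with no test.

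Expression was measured on Affymetrix Rat Gene 1.0 ST arrays in the proximal gastrocnemius, a calf muscle, of 28 female Sprague-Dawley rats in a model of intensive care. The 23 treated rats were anaesthetised, mechanically ventilated and paralysed with α-cobrotoxin, which comes from cobra venom and blocks transmission from nerve to muscle at the acetylcholine receptor. They form the groups 0.25-4d (6 hours to 4 days, 13 rats), 5-8d (4 rats) and 9-14d (6 rats), and the 5 other rats were sham-operated controls. By the study's methods the controls were not paralysed and were killed soon after surgery, so ventilation, paralysis, the time since surgery and the time under anaesthesia cannot be told apart. The methods also state that the anaesthetic was lowered over the opening days, which fall in the 0.25-4d group. The source descriptions of the controls mention the blocker and ventilation, against their titles and sample type, which were followed. The deposited table holds, for each duration, a log2 change against the controls and an adjusted p-value, with no value for a single rat and no expression level. The spread is therefore given as the recovered within-group SD and as standard errors (SE) with 95% intervals. This SD is the moderated one of the limma model. It is pooled over the 4 groups and drawn toward a value common to all probe sets, so it is not the spread of any 1 group. The presence of muscle markers could not be checked as a level. In whole muscle, fewer cells of a type and less RNA per cell cannot be told apart.

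Metallothioneins are small cysteine-rich proteins that bind zinc and copper. Free zinc in the cytosol activates the transcription factor MTF-1, the product of Mtf1, which binds metal response elements in the promoters of metallothionein genes and of the zinc exporter gene Slc30a1. Transporters of the SLC30 family move zinc out of the cytosol, across the plasma membrane or into vesicles, and those of the SLC39 family bring it in. Mt1a and Mt2A are expressed in many tissues and respond to metals, glucocorticoids, oxidative stress and inflammatory cytokines, whereas Mt3 is known mainly from brain.

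The promoters of 5 members are shown because they differ in their number of metal response element cores. Each holds the 250 bases before the RefSeq start and the 50 bases from the start on, 5′ to 3′ on the strand of the gene, on the build GRCr8. Capitals mark the core, searched as TGCACNC and TGCGCNC on both strands. Mt1a (Mt1 in RefSeq) lies at chr19:10832926-10833225 on the minus strand, Mt2A at chr19:10838659-10838958 on the minus strand, Mt3 at chr19:10856031-10856330 on the minus strand, Slc30a1 at chr13:106021769-106022068 on the plus strand, and the upstream start of Slc30a2 at chr5:151843201-151843500 on the plus strand.
Mt1a: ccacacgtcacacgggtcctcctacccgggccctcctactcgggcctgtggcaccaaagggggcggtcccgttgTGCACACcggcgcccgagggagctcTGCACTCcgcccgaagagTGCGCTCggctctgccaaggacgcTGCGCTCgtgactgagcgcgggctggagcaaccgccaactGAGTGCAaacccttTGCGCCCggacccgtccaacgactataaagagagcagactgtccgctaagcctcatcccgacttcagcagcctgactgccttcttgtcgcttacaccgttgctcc
Mt2A: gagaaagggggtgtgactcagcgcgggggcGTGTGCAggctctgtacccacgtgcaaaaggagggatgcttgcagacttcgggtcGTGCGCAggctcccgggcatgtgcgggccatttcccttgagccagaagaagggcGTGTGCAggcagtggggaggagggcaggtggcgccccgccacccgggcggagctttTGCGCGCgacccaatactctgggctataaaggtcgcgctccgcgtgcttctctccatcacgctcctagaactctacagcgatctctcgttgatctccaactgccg
Mt3: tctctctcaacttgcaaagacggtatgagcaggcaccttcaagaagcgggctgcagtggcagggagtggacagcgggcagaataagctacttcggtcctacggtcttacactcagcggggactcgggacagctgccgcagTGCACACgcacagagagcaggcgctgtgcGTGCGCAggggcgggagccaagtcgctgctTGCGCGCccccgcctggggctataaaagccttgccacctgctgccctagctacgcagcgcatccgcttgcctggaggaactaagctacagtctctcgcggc
Slc30a1: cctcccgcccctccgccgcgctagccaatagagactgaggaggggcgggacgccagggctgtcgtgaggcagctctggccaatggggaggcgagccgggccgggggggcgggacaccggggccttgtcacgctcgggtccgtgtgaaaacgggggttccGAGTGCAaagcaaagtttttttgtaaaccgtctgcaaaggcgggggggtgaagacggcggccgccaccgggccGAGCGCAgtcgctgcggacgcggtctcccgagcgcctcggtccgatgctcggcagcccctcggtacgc
Slc30a2: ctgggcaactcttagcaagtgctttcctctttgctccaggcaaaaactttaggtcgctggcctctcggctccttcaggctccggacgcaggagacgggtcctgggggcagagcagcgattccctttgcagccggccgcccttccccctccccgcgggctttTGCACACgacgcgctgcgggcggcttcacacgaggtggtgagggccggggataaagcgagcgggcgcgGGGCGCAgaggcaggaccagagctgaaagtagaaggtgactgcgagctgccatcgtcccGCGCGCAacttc

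Of the 10 members, 9 have a promoter in the RefSeq table. Mt1a had 6 cores, the most of them, with first bases from position -176 to position -55 relative to the start. Mt2A had 4 cores, and Mt3 and the upstream start of Slc30a2 had 3 each. Slc30a1 and Mtf1 had 2 each and Slc39a1 had 1, while the downstream start of Slc30a2 and the promoters of Slc39a8 and Slc39a10 had 0. Among all 33469 RefSeq promoters of this length, 24.2% held at least 1 core, 6.36% at least 2, 1.68% at least 3, 0.439% at least 4 and 0.0388% at least 6. The windows of the members were 47% to 70.3% G and C, against a median of 51.7% over all promoters. A match is a stretch of letters and not a measured binding site.

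Other motifs were searched in the same windows. The antioxidant response element core, TGACNNNGC, had 2 matches in Mtf1 and 1 each in Mt1a, Mt2A, Slc30a1, Slc39a1 and Slc39a8, and 12.1% of all promoters held at least 1. The match in Slc39a1 overlaps its metal response element core. The palindromic STAT site, TTCNNNGAA, had 1 match, in Slc39a8, the gene of the importer ZIP8, and 8.87% of all promoters held at least 1. The short glucocorticoid receptor motif, AGAACA, had 3 matches at the downstream start of Slc30a2 and 1 in Mtf1. At least 1 of these was held by 20.7% of all promoters and at least 3 by 0.436%.

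**Figure D1:**
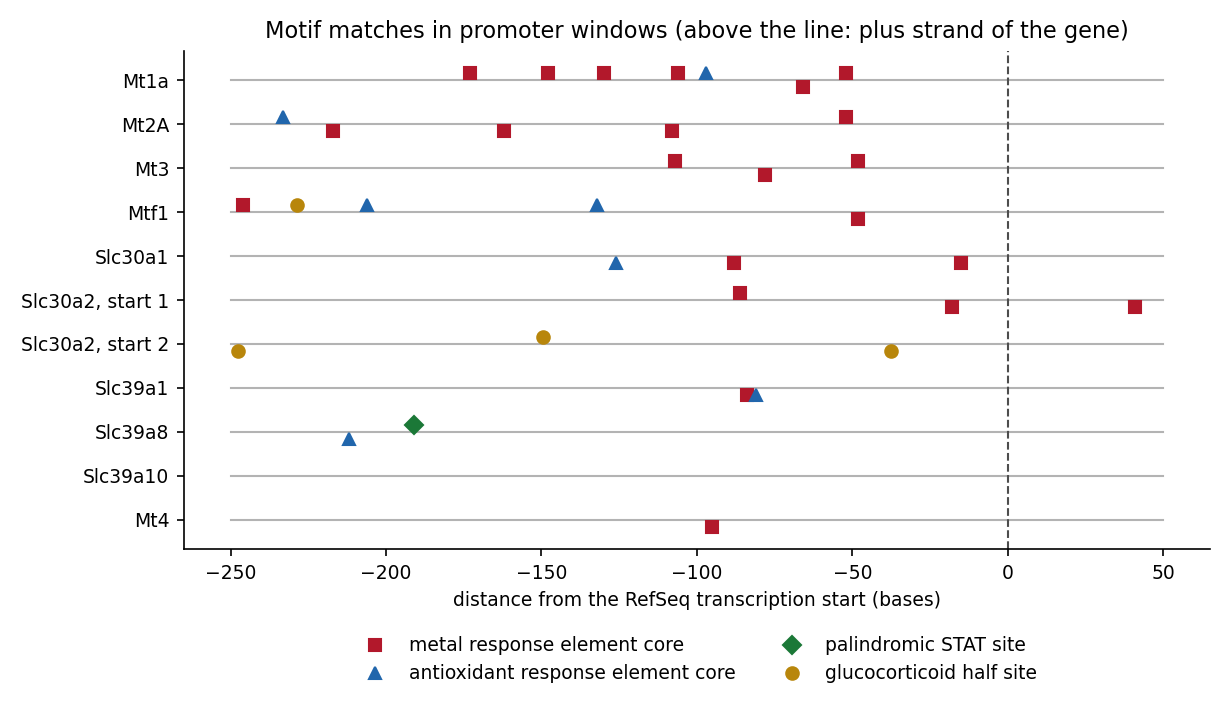
Positions of motif matches in the promoter windows of 9 members and of Mt4, in bases from the RefSeq transcription start (dashed line), with matches on the plus strand of the gene drawn above each line and those on the minus strand below it. Mt1a holds 6 metal response element cores and Mt2A 4, and Slc39a10 holds no match to any of the motifs searched.

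A call requires both a 2-fold difference or more and an adjusted p under 0.05. By this rule 4 of the 12 probe sets were called at 0.25-4d, 5 at 5-8d and 5 at 9-14d, every one of them higher than in the controls. Over all probe sets 0.549% were called at 0.25-4d, 5.21% at 5-8d and 5.12% at 9-14d. Since the members were chosen with these comparisons known, nothing is read from the counts. With an adjusted p below 0.05 alone the members' counts were 4, 5 and 6, where 3.54%, 26.2% and 35.5% of all probe sets passed at the 3 durations, and Slc39a8 at 9-14d was the 1 added. The called probe sets were those of Mt1a and Mt2A at all 3 durations and that of Slc30a2 at 5-8d and 9-14d.

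Mt1a encodes 1 of the widely expressed metallothioneins. Its probe set 10809392, on chromosome 19 at 11261631 to 11262647 of RGSC 3.4 on the minus strand, was higher than in the controls by 3.00 on the log2 scale at 0.25-4d (SE 0.34), by 3.74 at 5-8d (SE 0.44) and by 4.12 at 9-14d (SE 0.40). These log2 changes correspond to 8.00-fold, 13.3-fold and 17.3-fold. The 95% interval at 0.25-4d ran from 4.91-fold to 13.0-fold and that at 9-14d from 9.88-fold to 30.4-fold. These intervals overlapped, but both rest on the same controls. Their overlap does not compare the durations, whose difference is given further below. The probe set 10796411, on chromosome 17 at 85905733 to 85906148 on the plus strand, gave 2.91 (SE 0.34), 3.59 (SE 0.44) and 4.03 (SE 0.39) at the same durations. The annotation marks both Mt1a probe sets as cross-hybridising. Of the 43 probes of the chromosome 17 probe set, 42 match the Mt1a mRNA of RefSeq, and RefSeq lists only a pseudogene, Mt1-ps3, for the family on that chromosome. Their values are therefore not separate measurements of 2 genes.

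Mt2A encodes the other widely expressed metallothionein. Its probe set 10809399, on chromosome 19 at 11267946 to 11268523 on the minus strand, was higher by 2.73 on the log2 scale at 0.25-4d (SE 0.18), by 3.20 at 5-8d (SE 0.23) and by 3.32 at 9-14d (SE 0.20). These are 6.65-fold, 9.21-fold and 9.96-fold. The probe set 10827989, on chromosome 20 at 3324516 to 3324701 on the plus strand, gave larger changes of 3.31 (SE 0.22), 3.75 (SE 0.28) and 3.96 (SE 0.25), or 9.90-fold, 13.5-fold and 15.6-fold. Both are annotated to Mt2A and to RGD1562885 together, and the chromosome 19 probe set is marked as cross-hybridising. Of the 17 probes of the chromosome 20 probe set, 10 match the Mt2A mRNA of RefSeq and all 17 match an Ensembl transcript at that place. All 26 probes of the chromosome 19 probe set match the Mt2A mRNA, and 25 of them also match the chromosome 20 transcript. In RefSeq the family member on chromosome 20 is the pseudogene Mt1m, and RGD1562885 is a synonym of its neighbour C20h6orf15. The values of neither probe set are thus assigned to Mt2A alone.

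Ranked by log2 change among all probe sets, the 4 Mt1a and Mt2A probe sets were at places 1, 2, 3 and 5 at 0.25-4d, with the chromosome 20 probe set first. At 5-8d they stood at 9, 10, 12 and 22, and at 9-14d at 11, 13, 16 and 27. Their log2 changes at 0.25-4d were 72.1% to 83.4% of those at 9-14d, a share on the log scale that is smaller in linear terms. By the chromosome 19 probe sets, Mt1a stood at 8.00-fold at 0.25-4d and 17.3-fold at 9-14d. Mt2A stood at 6.65-fold and 9.96-fold. The within-group SD was 0.65 log2 units for both Mt1a probe sets, a spread wider than that of 98.6% of all probe sets, and 0.34 and 0.41 for the Mt2A probe sets. The median probe set of the table had 0.20.

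Mt3 and Mt4 are the other protein-coding metallothionein genes of the same cluster on chromosome 19. Mt3, with probe set 10809402 at 11284550 to 11286402, had log2 changes of -0.06 at 0.25-4d, 0.06 at 5-8d and -0.05 at 9-14d, with 95% intervals that lay between -0.31 and 0.35 at every duration. Mt4, which is no member and is known from stratified epithelia, gave 0.19, 0.17 and 0.04. The 4 genes span 40775 bases, and neither Mt3 nor Mt4 was called at any duration.

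Within 200000 bases of the cluster 7 other probe sets are annotated, Mt4 among them. At 0.25-4d none of them was called, and their log2 changes ran from -0.43 to 0.66. Nup93, a nuclear pore gene, was called at 5-8d with a log2 change of 1.03, and Gnao1, a G protein subunit gene, was called at 5-8d with -1.26 and at 9-14d with -1.72. In the cluster and these flanks, only Mt1a and Mt2A were called at 0.25-4d. Nup93 had 0.66 at that duration with an adjusted p of 0.0105 (limma), under the fold change minimum. Of all probe sets 0.549%, 5.21% and 5.12% were called at the 3 durations. The lack of calls among the other probe sets at 0.25-4d is therefore not read as a result.

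**Figure D2:**
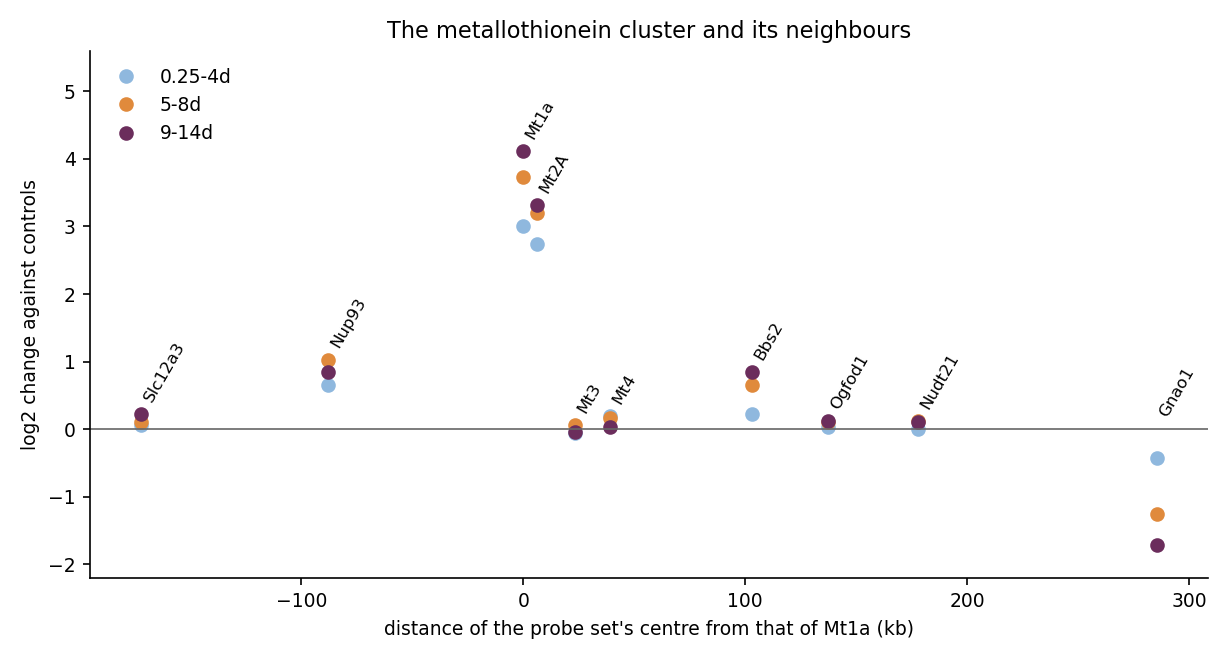
Log2 change against the controls at each duration (colours) for the probe sets within 200000 bases of the metallothionein cluster, plotted by the distance in kb of each centre from that of Mt1a. Mt1a and Mt2A lie between 2.73 and 4.12, while Mt3 and Mt4 lie between -0.06 and 0.19.

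The regulator Mtf1, on chromosome 5 at 144137786 to 144177518 of RGSC 3.4 on the plus strand, had values of 0.06, 0.04 and -0.03 on the log2 scale at the 3 durations, with SEs of 0.13, 0.16 and 0.15. Its transcript was thus within 1 SE of the controls throughout. The table says nothing of the activity of the MTF-1 protein.

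Slc30a1 encodes ZnT1, the zinc exporter of the plasma membrane. Its probe set 10766774 lies on chromosome 13 at 107980864 to 107986519 on the plus strand. Its log2 change was -0.02 at 0.25-4d (SE 0.13), -0.28 at 5-8d (SE 0.16) and 0.02 at 9-14d (SE 0.15), and it was called at no duration. The probe set is annotated to Slc39a4l as well, and 3 of its 26 probes match that transcript.

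Slc30a2 encodes ZnT2, which loads zinc into vesicles and is best known from mammary gland and pancreas. Its probe set 10872780, on chromosome 5 at 153086419 to 153098568 on the plus strand, was higher than in the controls by 1.01 on the log2 scale at 0.25-4d (SE 0.43), by 3.03 at 5-8d (SE 0.55) and by 1.57 at 9-14d (SE 0.49). These are 2.01-fold (95% interval 1.09 to 3.70), 8.18-fold (3.76 to 17.8) and 2.96-fold (1.47 to 5.97). The intervals are not adjusted for the number of probe sets. At 0.25-4d Slc30a2 was not called (limma, adjusted p = 0.217), and at 9-14d it was called with an adjusted p of 0.0150. The group at 5-8d, of 4 rats, stood highest, followed by 9-14d and 0.25-4d. The within-group SD of 0.82 log2 units was the widest among the members and wider than that of 99.5% of all probe sets.

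Slc39a1 encodes ZIP1, a zinc importer of the plasma membrane. Its probe set 10816959 lies on chromosome 2 at 182490491 to 182495534 on the plus strand. Its log2 change was -0.53 at 0.25-4d (SE 0.27), 0.72 at 5-8d (SE 0.34) and 0.32 at 9-14d (SE 0.31), so the estimate lay below the controls at the shortest duration and above them later. The 95% interval reached from -1.07 to 0.02 at 0.25-4d and from 0.02 to 1.41 at 5-8d. It was called at no duration.

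Slc39a8 encodes ZIP8, an importer of zinc and manganese. Its probe set 10819269 lies on chromosome 2 at 233340397 to 233403654 on the plus strand. Its log2 change was 0.36 at 0.25-4d (SE 0.18), 0.06 at 5-8d (SE 0.23) and 0.77 at 9-14d (SE 0.21). The estimate at 9-14d, 1.71-fold with a 95% interval of 1.27 to 2.29, had an adjusted p below the threshold but lay under the fold change minimum. Slc39a14 encodes ZIP14, an importer known to respond to inflammation in liver, and its probe set 10785019 lies on chromosome 15 at 50706217 to 50723051 on the minus strand. Its log2 change was 0.21, 0.23 and 0.46 at the 3 durations, with SEs of 0.19, 0.25 and 0.22. Slc39a10 encodes the importer ZIP10, and its probe set 10923294, on chromosome 9 at 52168068 to 52215308 on the plus strand, gave -0.16, -0.23 and -0.25, with SEs of 0.14, 0.18 and 0.16. Neither gene was called at any duration, and each of their 95% intervals included 0.

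**Figure D3:**
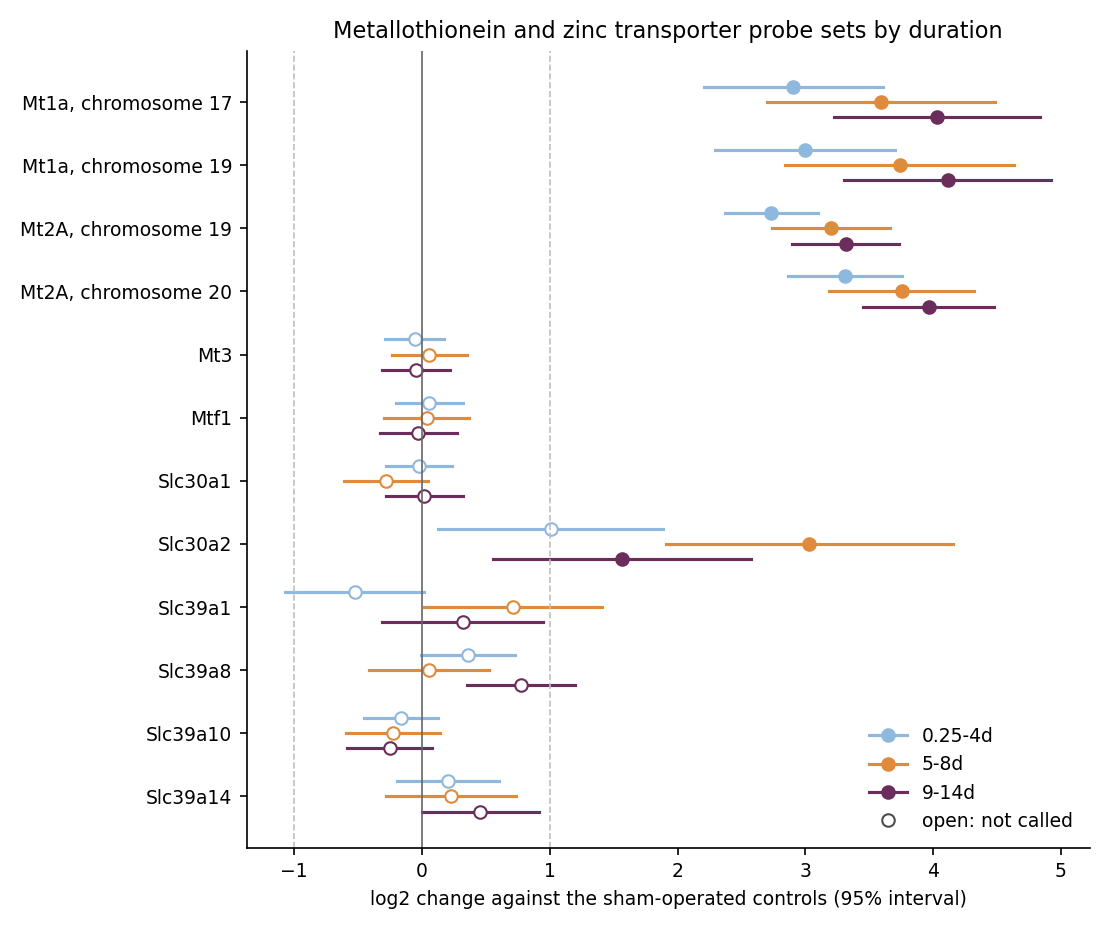
Log2 change against the sham-operated controls for the 12 probe sets at 0.25-4d (13 rats), 5-8d (4 rats) and 9-14d (6 rats), with bars for the 95% interval and dashed lines at a fold change of 2. Filled points are called, which are the 4 Mt1a and Mt2A probe sets at every duration and Slc30a2 at 5-8d and 9-14d.

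The durations were then compared with one another, which takes the controls out of the difference. These differences come from the same arrays and were in part known when the genes were chosen, and p-values were adjusted over all 26208 probe sets. Between 0.25-4d and 9-14d, 5 of the 12 probe sets differed, all higher at 9-14d (limma, adjusted p below 0.05). Over all probe sets 35.5% differed between these durations, so such a difference was common. The 4 Mt1a and Mt2A probe sets were among the 5. Mt1a was higher at 9-14d by 1.11 on the log2 scale in the chromosome 19 probe set (SE 0.32, adjusted p = 0.00857) and by 1.12 in the chromosome 17 probe set (SE 0.32, adjusted p = 0.00776). Mt2A was higher by 0.58 in the chromosome 19 probe set (SE 0.17, adjusted p = 0.00776) and by 0.66 in the chromosome 20 probe set (SE 0.20, adjusted p = 0.0138). In linear terms, by the chromosome 19 probe sets, the 9-14d group had 2.17-fold the Mt1a level and 1.50-fold the Mt2A level of the 0.25-4d group.

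Slc39a1 was the remaining probe set that differed between 0.25-4d and 9-14d, higher later by 0.84 on the log2 scale (SE 0.25, adjusted p = 0.0101). It also differed between 0.25-4d and 5-8d, by 1.24 (SE 0.29, adjusted p = 0.00218), or 2.36-fold. Slc30a2 rose between 0.25-4d and 5-8d by 2.02 (SE 0.47, adjusted p = 0.00196), or 4.07-fold. These were the 2 of 12 probe sets that differed between these durations, where 21.3% of all probe sets did. The Mt1a and Mt2A differences between 0.25-4d and 5-8d, from 0.45 to 0.74, did not pass, with adjusted p from 0.0843 to 0.210.

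By limma, 0 of the 12 probe sets passed an adjusted p of 0.05 between 5-8d and 9-14d, where 0.408% of all probe sets did. At an unadjusted p below 0.05 Slc30a2 and Slc39a8 would have passed. Slc30a2 was lower at 9-14d by a log2 difference of -1.47, with a 95% interval of -2.55 to -0.39 (p = 0.00953, adjusted p = 0.202, limma). Slc39a8 was higher by 0.72, with an interval of 0.27 to 1.17 (adjusted p = 0.131). The Mt1a and Mt2A differences between 5-8d and 9-14d ran from 0.11 to 0.44, and each interval included 0. For Mt1a on chromosome 19 that interval, -0.49 to 1.24, still holds changes of more than 2-fold.

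**Figure D4:**
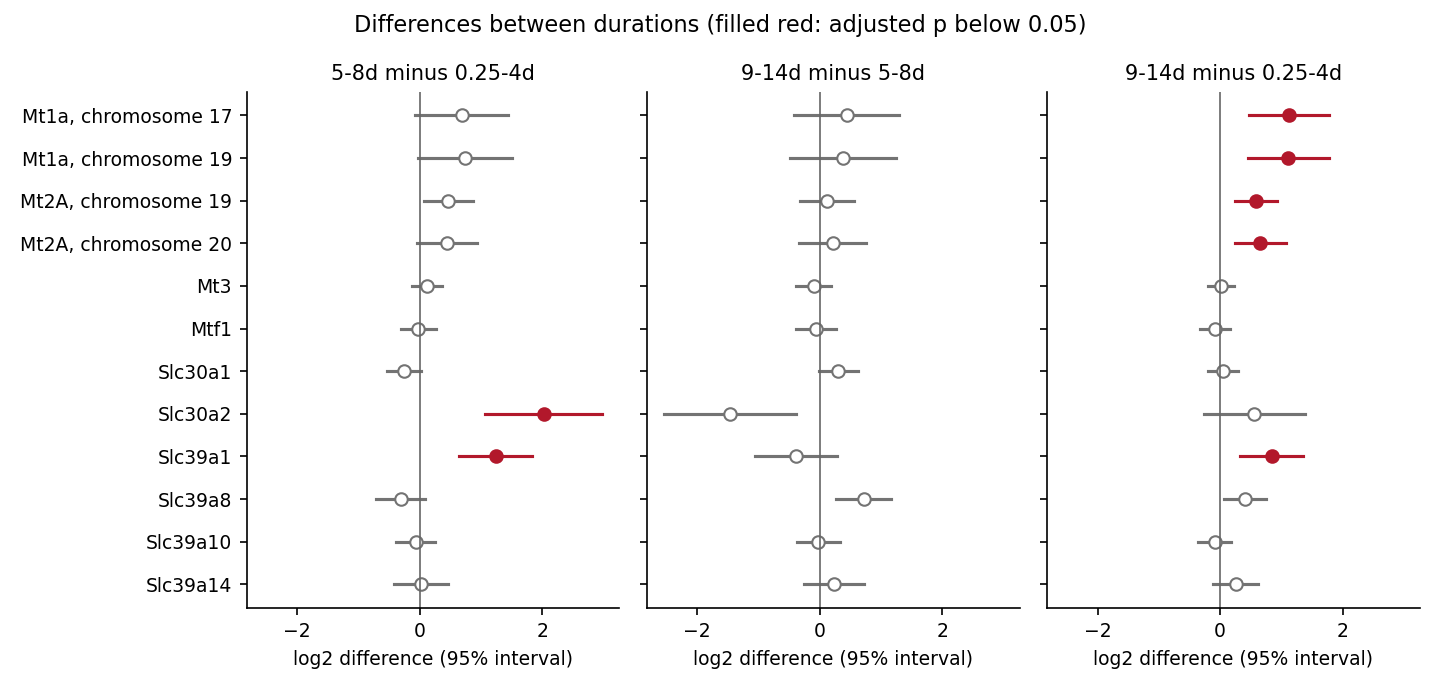
Log2 difference between durations for the 12 probe sets, later minus earlier, with 95% intervals. Filled red points have an adjusted p below 0.05, which are Slc30a2 and Slc39a1 for 5-8d minus 0.25-4d, none for 9-14d minus 5-8d, and Slc39a1 with the 4 Mt1a and Mt2A probe sets for 9-14d minus 0.25-4d.

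The whole SLC30 and SLC39 families have 24 genes and 25 probe sets in the table. None was called at 0.25-4d, and Slc30a2 was the only one called at 5-8d and at 9-14d. Calls were made for 0.549%, 5.21% and 5.12% of all probe sets at the 3 durations, so nothing is read from these counts. The median log2 change over the 25 probe sets was -0.02, 0.13 and 0.22 at the 3 durations, against -0.01, -0.04 and -0.07 over all probe sets. Between 0.25-4d and 5-8d 9 of the 25 differed, all higher at 5-8d, beside 21.3% of all probe sets in either direction. Between 0.25-4d and 9-14d 8 of the 25 differed, all higher at 9-14d, beside 35.5% of all probe sets.

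Outside the members, 8 SLC30 genes had median log2 changes of -0.01, 0.16 and 0.20 at the 3 durations. At 9-14d 3 of them were higher and 2 lower than in the controls at an adjusted p below 0.05 alone, the threshold that 35.5% of all probe sets passed. Slc30a4, a vesicular transporter, had a log2 change of 0.74, Slc30a3 of 0.70, Slc30a6 of 0.47 and Slc30a9 of -0.40. The 10 other SLC39 genes, with 11 probe sets, had medians of -0.05, 0.11 and 0.11. At 9-14d 5 of their probe sets were higher and 2 lower at an adjusted p below 0.05 alone. Slc39a6, the importer ZIP6, had a log2 change of 0.88, Slc39a11 of 0.58 and Slc39a2 of -0.39. The 2 probe sets of Slc39a13 gave 0.54 and 0.47 at 9-14d but 0.65 and -0.11 at 5-8d, and the former of each pair is shared with Psmc3, a proteasome gene.

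**Figure D5:**
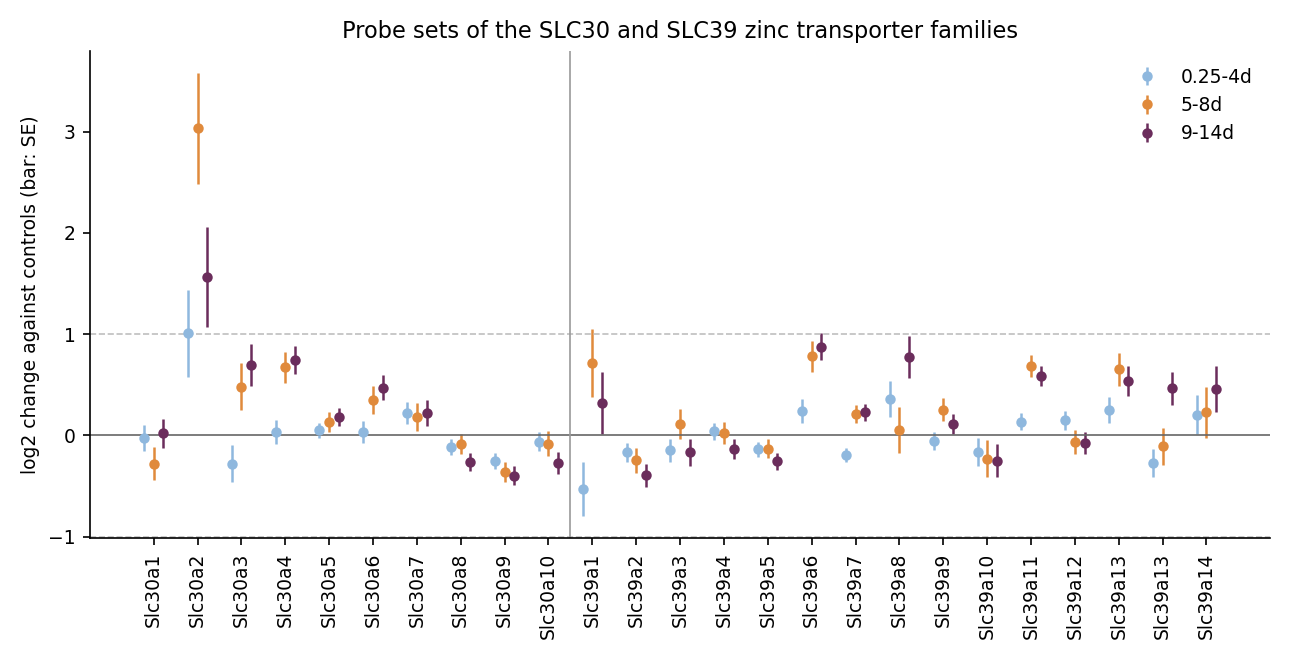
Log2 change against the controls, with SE bars, for the 25 probe sets of the SLC30 (left) and SLC39 (right) families at the 3 durations, with a dashed line at a fold change of 2. Slc30a2 reaches 3.03 at 5-8d, and all other probe sets stay between -0.53 and 0.88.

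Genes of 4 related pathways were set beside the metallothioneins. Over all probe sets 0.549% were called at 0.25-4d, 5.21% at 5-8d and 5.12% at 9-14d. Of the 9 probe sets found for genes induced by glucocorticoids, 3 were called at 0.25-4d, 0 at 5-8d and 1 at 9-14d, with median log2 changes of 0.92, 0.03 and -0.28. Fkbp5, a chaperone gene used as a glucocorticoid marker, stood at 1.97, then 0.09, then 0.04 on the log2 scale. Of the 9 probe sets 8 were lower at 9-14d than at 0.25-4d at an adjusted p below 0.05. Over all probe sets 35.5% differed between these durations, in either direction. The 1 called at 9-14d was Sgk1, a kinase gene, with log2 changes of 0.47, 1.29 and 1.40.

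Of 9 probe sets for STAT3 and acute phase genes 0, 0 and 1 were called at the 3 durations, and the medians were 0.43, 0.40 and 0.73. The shares called over all probe sets were 0.549%, 5.21% and 5.12%. The 1 called was Osmr, the receptor of oncostatin M, with 1.03 at 9-14d. Of 7 redox targets 1, 2 and 2 were called, with medians of 0.28, 0.60 and 0.46. Hmox1, the heme oxygenase gene, was called at every duration with log2 changes of 1.58, 1.77 and 2.10, and Nqo1 gave 0.16, 1.25 and 1.58. Of 10 copper genes 0, 1 and 1 were called, with medians of -0.08, 0.21 and 0.55. The called gene was Slc31a2, a copper transporter of vesicles, with 0.51, 1.75 and 1.11.

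Cell type markers were counted in the same way, again beside 0.549%, 5.21% and 5.12% of all probe sets called at the 3 durations. Of 7 macrophage markers 1 was called at 0.25-4d, 0 at 5-8d and 5 at 9-14d, and their log2 changes ran from 0.09 to 1.01, from -0.24 to 0.47 and from 0.68 to 1.51. The macrophage markers had median log2 changes of 0.16, -0.01 and 1.21 at the 3 durations. Mt1a on chromosome 19 had 3.00, 3.74 and 4.12, and Slc30a2 had 1.01, 3.03 and 1.57. At 9-14d the macrophage markers had their highest log2 changes, and so did the members Mt1a, Mt2A, Slc30a1, Slc39a8 and Slc39a14. Slc30a2 and Slc39a1 had theirs at 5-8d. The part of macrophages in the values of the members was not tested. Of 8 muscle fibre probe sets 0, 1 and 1 were called, each lower than in the controls, with medians of -0.02, -0.39 and -0.50. Of 4 fibroblast markers 0, 2 and 1 were called, each lower. No endothelium, fat cell or Schwann cell marker was called at any duration. Of the 5 endothelium markers listed 3 were found, and of the 4 fat cell markers 3. At an adjusted p below 0.05 alone, 2 endothelium markers were lower than in the controls at 5-8d and at 9-14d. They were Tek, with -0.56 and -0.47, and Cdh5, with -0.38 and -0.52, while Vwf had 0.00 and 0.07. Of 3 satellite cell markers 1 was called at 5-8d and at 9-14d. This was Myf5, with log2 changes of 1.52 and 2.15, while Pax7 had -0.56 and -0.70 and Cdh15 had 0.27 and -0.58 at these durations.

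The patterns most like those of the members over the 3 log2 changes were found by Euclidean distance among all other probe sets with a symbol. No Mt1a or Mt2A probe set is both unshared and free of cross-hybridisation, so the mean of all 4 was used, with log2 changes of 2.99, 3.57 and 3.86. The nearest was Gadd45a, a growth arrest gene, with 1.72, 4.09 and 3.91 at a distance of 1.37 log2 units. Ctsl1, the cathepsin L gene, followed at 1.39 with 1.70, 3.46 and 3.37, and then Sat1, Gpnmb and Ampd3 at 1.87 to 1.93. The 4 Mt1a and Mt2A probe sets lay 0.20 to 1.03 from one another. At 0.25-4d the 5 neighbours had log2 changes from 1.32 to 1.96. Among probe sets with a symbol, the Mt1a and Mt2A probe sets held places 1, 2, 3 and 4 at that duration. Any neighbour therefore had to be lower there. For Slc30a2 the nearest were Abhd2 at 0.58, Cds2 at 0.69 and Cidea, a lipid droplet gene, at 0.73, followed by Slc6a9 and Wdr62. These distances rest on 3 values that share the controls and are a description.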

How the data were processed

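Arrays of 28 rats in 4 groups were compared by duration. Per the methods, the authors summarised the arrays by RMA and fitted 1 linear model in limma with 3 comparisons against the controls (the submitters' processing notes also name MAS5, and the table's opening line speaks of lowess). The deposited table holds their log2 fold changes and p-values adjusted by Benjamini-Hochberg for 26208 probe sets, on RGSC 3.4. The members are defined by these comparison columns, so they were used as deposited.

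The adjustment was undone, and each p-value was turned into a moderated limma statistic with 28.3 degrees of freedom (24 residual, 4.26 prior), which gave the within-group SD (largest error bound 0.163%), SEs, 95% intervals and the differences between durations. Recomputed adjusted p-values changed 0 calls, and the recovery was tested on simulated data. Calls need a 2-fold difference or more with an adjusted p under 0.05.

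The members, lists and comparisons were chosen with earlier results of these data known. All members and every probe set of each are named, with up to 4 genes of a related transporter list by size of change at 9-14d, and the 5 nearest patterns. Examples from other lists, flanking genes and markers were chosen after their values were seen. Each array is 1 rat. Single-array values were not analysed here, so the number of rats limits the precision and no depth is given. Promoters are from RefSeq, on GRCr8, and no position was carried between builds. Slc39a14 has no promoter in the table used. Tools were Python 3.11.15, numpy 2.4.6, scipy 1.17.1, pandas 2.3.3 and matplotlib 3.10.9.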

Additional observations from a re-analysis of the deposited data

Results flagged for a closer look

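The change against the controls differed between durations (limma, adjusted p below 0.05) for 6 of the 12 probe sets and in 7 comparisons. These differences come from the same log2 changes by which the genes were chosen, so they are a description. Among all probe sets 35.5% differed between 0.25-4d and 9-14d, and 21.3% between 0.25-4d and 5-8d. Between 5-8d and 9-14d 0.408% did. Nothing is read from the members' counts. Between 0.25-4d and 9-14d the log2 change was larger later by 1.12 for Mt1a on chromosome 17, by 1.11 for Mt1a on chromosome 19, by 0.58 for Mt2A on chromosome 19, by 0.66 for Mt2A on chromosome 20 and by 0.84 for Slc39a1. Between 0.25-4d and 5-8d it was larger later by 2.02 for Slc30a2 and by 1.24 for Slc39a1. The probe sets of 1 metallothionein share target transcripts, so the 4 Mt1a and Mt2A values are not independent of one another. Slc30a2 and Slc39a1 differed at 5-8d, the group of 4 rats, and whether a single rat carries either value was not tested, since no value per rat was used here.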

How the results depend on the processing

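Leaving out the probe sets that the annotation marks as cross-hybridising or that list several genes removed the probe sets of Mt1a, Mt2A and Slc30a1 by construction. The members called then numbered 0 at 0.25-4d, 1 at 5-8d and 1 at 9-14d, and those that differed between 0.25-4d and 9-14d numbered 1. With a fold change minimum of 2 for that difference 2 members differed, both of them Mt1a. With p-values adjusted over the 3 differences together 1 member differed between 5-8d and 9-14d, Slc39a8 with 0.72. Slc39a8 also passed for 9-14d minus 0.25-4d, with 0.47, once each comparison was centred on its median, which was -0.01, -0.04 and -0.07 at the 3 durations. The same centring turned the sign of 2 differences near 0 that passed no threshold, Mtf1 for 5-8d minus 0.25-4d to 0.0098 and Slc39a10 for 9-14d minus 5-8d to 0.0056. With an adjusted p below 0.01 in the call, 4 members' probe sets were called at 9-14d in place of 5. Slc30a2 was no longer among them (limma, adjusted p = 0.0150). The other results under the alternatives run kept their direction and their side of the threshold, or stayed within 1.5 times for a count. Leaving out each rat in turn was not run, because it needs the values of single arrays, so results that rest on 4 rats at 5-8d have no such check. Signal over background is likewise unknown here.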

Other observations

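Slc30a2 lies beside Trim63, the gene of the ubiquitin ligase MuRF1 that is known from muscle atrophy, with 12497 bases between their probe sets on RGSC 3.4. Trim63 had log2 changes against the controls of 1.48 at 0.25-4d, 1.78 at 5-8d and 1.11 at 9-14d. It was the only 1 of the 13 other probe sets within 200000 bases of Slc30a2 that was called at each duration. Of all probe sets 0.549%, 5.21% and 5.12% were called at the 3 durations. Cnksr1, also in this range, had 0.97 at 0.25-4d with an adjusted p of 0.0198 (limma), under the fold change minimum. Extl1, the neighbour of Slc30a2 on the side away from Trim63, had -0.31, 0.15 and 0.20. Slc30a2, with 1.01, 3.03 and 1.57, was below Trim63 at 0.25-4d and above it at the later durations. The order of these log2 changes was not tested.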
